A study of Drosophila melanogaster with 2 samples.

Results

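The genes described here encode RNA polymerase II, the general transcription factors with a TfII symbol, the TBP-associated factors (TAFs) of TFIID and the core of Mediator. They were taken from the Ensembl annotation of the Drosophila melanogaster genome as the protein-coding genes whose symbol begins with Polr2, TfII, Taf and a digit, or MED and a digit. This gave 62 of 13945 protein-coding genes on the 6 arms X, 2L, 2R, 3L, 3R and 4, of which 13 were Polr2 genes, 9 TfII genes, 15 Taf genes and 25 MED genes. A choice by symbol leaves out genes of the same complexes with other names, such as Tbp and the kinase module of Mediator. It also takes in Taf12L, a testis TAF homologue. Binding of CG17801, a zinc finger protein, was profiled by ChIP-seq with an antibody against GFP in ovaries of adult females, of unknown age per the labels. The flies were of 1 transgenic line in which CG17801 fused to GFP at its C-terminus had been inserted by site-specific recombination and was stably expressed. There were 2 biological replicates of 1 group, numbered 1 and 3, and with no other genotype or control among the data, peaks of CG17801 cannot be told apart from sites where the antibody or GFP alone would give a peak. The ovary was profiled as a whole, so peaks of its germline and somatic cells cannot be told apart.

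RNA polymerase II makes messenger RNA and cannot find a promoter by itself. TFIID, made of TBP and the TAFs, recognises the core promoter, TFIIA and TFIIB stabilise it there and bring in the polymerase with TFIIF, and TFIIE then recruits TFIIH, which opens the DNA. Mediator passes signals from DNA-bound activators to the polymerase, and has head, middle and tail modules joined by the backbone subunit MED14. In females, ovarian nurse cells use this machinery heavily to load the egg with RNA.

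A gene was counted as bound where the summit of a peak lay within 250 bp of one of its annotated transcription start sites (TSSs), and a summit could count for more than 1 gene. The deposited peak lists were 1 of each replicate and 1 of the pooled replicates, with 30000 peaks each, and a reproducible list of 6723 peaks made with the irreproducible discovery rate (IDR) procedure. The 4 lists share reads and are not independent of each other. Peaks carry a signal value from the authors, on an unstated scale, which is used here with its rank (1 is the strongest) only within a list. The lists do not give the read depth, and the values below therefore have no counting error. Coordinates are in dm6.

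Sequences at strong peaks of the set are shown because of their A+T-rich stretches. Each is given 5′ to 3′ on the strand of the named gene, with 60 bases on either side of the summit of the IDR list, and capitals mark runs of 10 or more bases that are all A or T. The windows are Polr2B chr3R:14125644-14125764 (plus strand), Polr2J chr2L:17410460-17410580 (minus), TfIIA-L chr3R:27253234-27253354 (plus), Taf4 chr3L:16113622-16113742 (plus), MED30 chr3L:654203-654323 (minus), MED27 chr3R:5654920-5655040 (plus) and MED17 chr3R:18188829-18188949 (plus). They are upstream of a start of the gene they are named for and hold no annotated exon. At TfIIA-L, MED30, MED27 and MED17 the start of another gene was nearer to the summit.
Polr2B: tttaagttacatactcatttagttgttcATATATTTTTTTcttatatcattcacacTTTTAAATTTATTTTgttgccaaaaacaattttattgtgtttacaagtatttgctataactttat
Polr2J: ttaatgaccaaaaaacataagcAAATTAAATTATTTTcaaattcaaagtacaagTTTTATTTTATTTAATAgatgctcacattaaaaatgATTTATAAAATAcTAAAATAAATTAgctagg
TfIIA-L: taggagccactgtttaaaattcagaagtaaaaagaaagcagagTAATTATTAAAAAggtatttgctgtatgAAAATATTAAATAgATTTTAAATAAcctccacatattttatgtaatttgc
Taf4: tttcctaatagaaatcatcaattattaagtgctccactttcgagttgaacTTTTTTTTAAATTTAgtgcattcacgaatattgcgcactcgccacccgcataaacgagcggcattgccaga
MED30: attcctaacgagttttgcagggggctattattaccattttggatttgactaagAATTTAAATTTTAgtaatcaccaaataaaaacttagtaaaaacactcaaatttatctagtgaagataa
MED27: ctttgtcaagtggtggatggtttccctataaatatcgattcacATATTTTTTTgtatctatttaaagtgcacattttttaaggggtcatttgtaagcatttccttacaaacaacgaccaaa
MED17: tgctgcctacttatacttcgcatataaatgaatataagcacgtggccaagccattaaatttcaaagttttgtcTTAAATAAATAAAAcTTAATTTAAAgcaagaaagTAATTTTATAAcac
The windows were chosen for these runs, so that each holds 1 says nothing of strong peaks in general. Over 50 bases on either side of the summit, the strong peaks of MED25, TfIIA-S and Polr2F had longest runs of 9, 9 and 4. Among the windows shown, the A+T share was highest at Polr2J (81.8%) and Polr2B (80.2%) and lowest at Taf4 (61.2%), against 57.8% over the 6 arms.

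For contrast, the next windows belong to genes that were bound weakly or not at all. The first is the whole stretch between the opposite starts of Taf10b and Taf10, chr2L:2767846-2767889 (plus strand, that of Taf10), which holds the summit of both. The other window runs from 100 bases before to 20 bases after the start of TfIIA-S-2, chrX:1011623-1011743 (minus), a gene that had no promoter peak in any list. Capitals again mark runs of 10 or more A or T.
Taf10b-Taf10: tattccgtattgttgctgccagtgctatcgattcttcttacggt
TfIIA-S-2: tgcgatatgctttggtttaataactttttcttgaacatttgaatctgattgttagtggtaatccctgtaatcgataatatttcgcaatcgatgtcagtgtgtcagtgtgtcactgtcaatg
The stretch between Taf10b and Taf10 was 56.8% A+T with no run longer than 4. It has only 44 bases, against 121 in the windows of the strong peaks, so its values cannot be set beside theirs. Over 101 bases centred on the shared summit, the A+T share was 60.4% and the longest run 8. The Taf4 summit had the same share over 101 bases, 60.4%, with a longest run of 15. At weaker IDR peaks the longest run was 15 at Taf3 and MED24 and 8 at Polr2M and MED14. The Taf10b and Taf10 stretch therefore does not stand for weak peaks in general. The TfIIA-S-2 window was 64.5% A+T, so a high A+T share was also found without a peak.

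CG17801-GFP peaks were found at the promoters of many genes of this machinery. In the IDR list 37 of the 62 genes (59.7%) were bound, where the share over all 13945 genes was 30.4%. With a window of 100 bp the count was 20 (32.3%, all genes 18.7%), and with each summit given only to its nearest TSS it was 23 (37.1%, all genes 24.6%). In the pooled list 59 of 62 (95.2%) were bound against 55.4% of all genes. In replicate 1 the count was 56 of 62 (90.3%), with 54.0% of all genes bound, and in replicate 3 it was 59 of 62 (95.2%), with 54.4% of all genes bound. A promoter summit in all 4 lists was found at 36 genes of the set (58.1%) and at 29.9% of all genes. Genes with no promoter summit in either replicate made up 3 of 62 (4.84%), namely TfIIA-S-2, Taf11 and Taf12L, and 41.0% of all genes.

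The replicates taken alone gave similar counts. Among the 6723 strongest peaks of replicate 1, 33 of 62 genes (53.2%) were bound, and the background was 29.4%. Among the 6723 strongest of replicate 3, 34 of 62 (54.8%) were bound, and the background was 29.8%. Genes with several TSSs have more chances to count as bound, and what this adds to the shares was not tested. Several TSSs were annotated for 6 genes of the set (9.68%) and for 26.5% of all genes. Over genes with a single TSS, 33 of 56 (58.9%) were bound in the IDR list and 24.8% of all such genes. Among genes with a pooled promoter summit, 37 of 59 (62.7%) also had one in the IDR list against 55.0% of all such genes, so the distance to the background was smaller there than over the whole set.

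**Figure D1:**
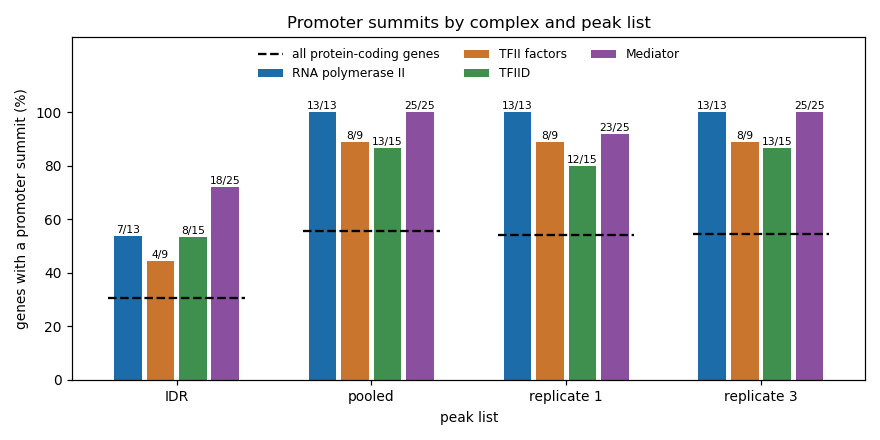
Share of genes with a promoter summit (y axis, percent) in each of the 4 peak lists (x axis), by complex, with bound genes over all genes of the complex above each bar and the share over all 13945 protein-coding genes as a dashed line. Each bar stands above its dashed line, from 44.4% for the TfII genes to 72.0% for the MED genes in the IDR list.

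By complex, the IDR list held 7 of 13 Polr2 genes (53.8%), 4 of 9 TfII genes (44.4%), 8 of 15 Taf genes (53.3%) and 18 of 25 MED genes (72.0%). With 9 to 25 genes in each complex, 1 gene moves these shares by 4 percentage points or more, and the differences between complexes were not tested. The pooled list held all 13 Polr2 genes, 8 of 9 TfII genes, 13 of 15 Taf genes and all 25 MED genes. With each IDR summit given only to its nearest TSS, 2 of 9 TfII and 3 of 15 Taf genes were bound. Both shares were below the 24.6% of all genes at that setting.

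Peaks at RNA polymerase II genes were strongest at the gene of the second largest subunit. Polr2B (FBgn0262955, chr3R:14125791-14130111, plus strand), which forms one wall of the active site cleft, had a signal of 242 and rank 417 in replicate 1, 331 and rank 423 in replicate 3, and 564 and rank 425 in the pooled and IDR lists. Its summits lay 85 to 87 bp upstream of the start in every list. Polr2A (FBgn0003277, chrX:11562800-11570326, minus strand), the largest subunit with the C-terminal repeat domain, ranked 1245 in replicate 1 and 2264 in replicate 3, with an IDR signal of 284 at 104 bp upstream. Both catalytic subunit genes were thus in all 4 lists, with Polr2B the stronger in each.

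Polr2J (FBgn0032634, chr2L:17409698-17410406, minus), which pairs with Polr2C in the assembly platform of the enzyme, ranked 1488 in replicate 1 and 793 in replicate 3, with an IDR signal of 357. Its partner Polr2C ranked 8546 in replicate 1 and 6584 in replicate 3 and was not in the IDR list. The genes of this heterodimer were therefore on different sides of the IDR threshold. Polr2F (FBgn0003275, chr3R:5371795-5372397, plus), a subunit that RNA polymerases I, II and III share, ranked 2066 in replicate 1 and 1801 in replicate 3, with an IDR signal of 259 and the summit 52 bp upstream. Polr2H, another shared subunit, was in the IDR list with a signal of 223.

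The other shared subunits Polr2E, Polr2K and Polr2L had pooled ranks of 22718, 23062 and 13536 and were not in the IDR list. The 2 stalk subunits also differed. Polr2D was in the IDR list at rank 5163 with the summit 2 bp downstream of its start, while Polr2G was found only at pooled rank 18746. The start of another gene, Ada2a, was also 2 bp from the Polr2D summit, so which of them owns that peak cannot be told. Polr2I, a zinc-binding subunit, had pooled rank 8833. Polr2M, whose human counterpart is an inhibitory factor associated with the polymerase, was in the IDR list at rank 6336, with rank 4092 in replicate 1 and 11313 in replicate 3. All 13 Polr2 genes had a promoter summit in both replicates.

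The TfII genes with the strongest peaks were those of TFIIA, the factor that stabilises TBP on DNA. TfIIA-L (FBgn0011289, chr3R:27251112-27256463, plus), which encodes the precursor of the large subunits, ranked 1460 in replicate 1 and 1227 in replicate 3. Its IDR signal was 330 at 136 bp upstream of an internal start, in an intron of the longer transcripts. The start of another gene, pll, was nearer to that summit, at 112 bp. TfIIA-S (FBgn0013347, chr3R:23890388-23891060, minus), the small subunit, ranked 2535 in replicate 1 and 1311 in replicate 3, with an IDR signal of 271 at 20 bp upstream. Its paralogue TfIIA-S-2 (FBgn0040338, chrX:1011101-1011643, minus) had no promoter summit in any list, and its nearest pooled summit was 15073 bp away. The genes of the same factor thus ranged from the strongest TfII signal, at a summit nearer to pll, to none.

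TfIIEalpha (FBgn0015828, chr3L:11682038-11683805, plus), the large TFIIE subunit, ranked 4427 in replicate 1 and 7749 in replicate 3, with an IDR signal of 141 and rank 5092 at 8 bp upstream. TfIIFalpha (FBgn0010282, chr3R:6380467-6382604, plus), the large TFIIF subunit, ranked 8528 and 4208, with an IDR signal of 140 and rank 5144 at 142 bp upstream. Their small subunits TfIIEbeta and TfIIFbeta had pooled ranks of 7441 and 8048, just below the end of the IDR list. TfIIS, which helps a stalled polymerase to cut its transcript, had pooled rank 8424. TfIIB, which links TBP to the polymerase, had a signal of 20.4 and rank 19900 in replicate 1 against 74.4 and rank 5870 in replicate 3. Its pooled rank was 8196, so TfIIB was weak in replicate 1 and among the 6723 strongest peaks only in replicate 3.

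In TFIID the strongest peak of the whole set lay upstream of Taf5, a WD40 repeat subunit of the TFIID core. Taf5 (FBgn0010356, chr2R:10877312-10879673, minus) had a signal of 356 and rank 189 in replicate 1, 444 and rank 218 in replicate 3, and 807 and rank 199 in the IDR list, with the summits 157 to 178 bp upstream of its start. Taf2 (FBgn0011836, chr3L:9884411-9888683, minus), a subunit that contacts DNA around the start site, had a signal of 329 and rank 431 in replicate 3 and 534 and rank 474 in the IDR list, with the IDR summit 228 bp upstream. In replicate 1 the nearest summit to Taf2 was 309 bp upstream, outside the 250 bp window, so Taf2 was the 1 gene of the IDR list that did not count as bound in every list. Taf4 (FBgn0010280, chr3L:16113212-16121651, plus), a subunit that contacts activators, ranked 990 in replicate 1 and 1133 in replicate 3 with an IDR signal of 357. Taf13 (FBgn0032847, chr2L:20093088-20093849, minus), a histone-fold subunit, ranked 2889 and 3807 with an IDR signal of 203.

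Taf13 pairs with Taf11, whose nearest summits were 286, 288 and 289 bp upstream in the IDR list, replicate 1 and replicate 3. Taf11 was therefore not counted although a summit lay 36 bp beyond the edge of the window, and it counted as bound with a window of 500 bp. Taf12, the histone-fold partner of Taf4, was in the IDR list at rank 3657. Its testis homologue Taf12L had no promoter summit in any list, and its nearest pooled summit was 45698 bp away. Taf3, a subunit with a PHD finger on chromosome 4, had IDR rank 6505 at 86 bp downstream of the start. The genes Taf10 and Taf10b had the same summit at IDR rank 4833 with a signal of 146, at rank 5380 in replicate 1 and 4708 in replicate 3.

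The remaining TAF genes were not in the IDR list and were weak in both replicates. Taf1, the largest subunit, had rank 25422 in replicate 1 and 18164 in replicate 3. Taf6 and Taf9, which form a histone-fold pair, had pooled ranks of 17313 and 15741. Taf7, which binds Taf1, had pooled rank 17612 and Taf8, a partner of Taf10, 13465. These 5 genes had summits within 100 bp of their starts in the pooled list, with those of Taf6 and Taf7 upstream and those of Taf1, Taf8 and Taf9 downstream.

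**Figure D2:**
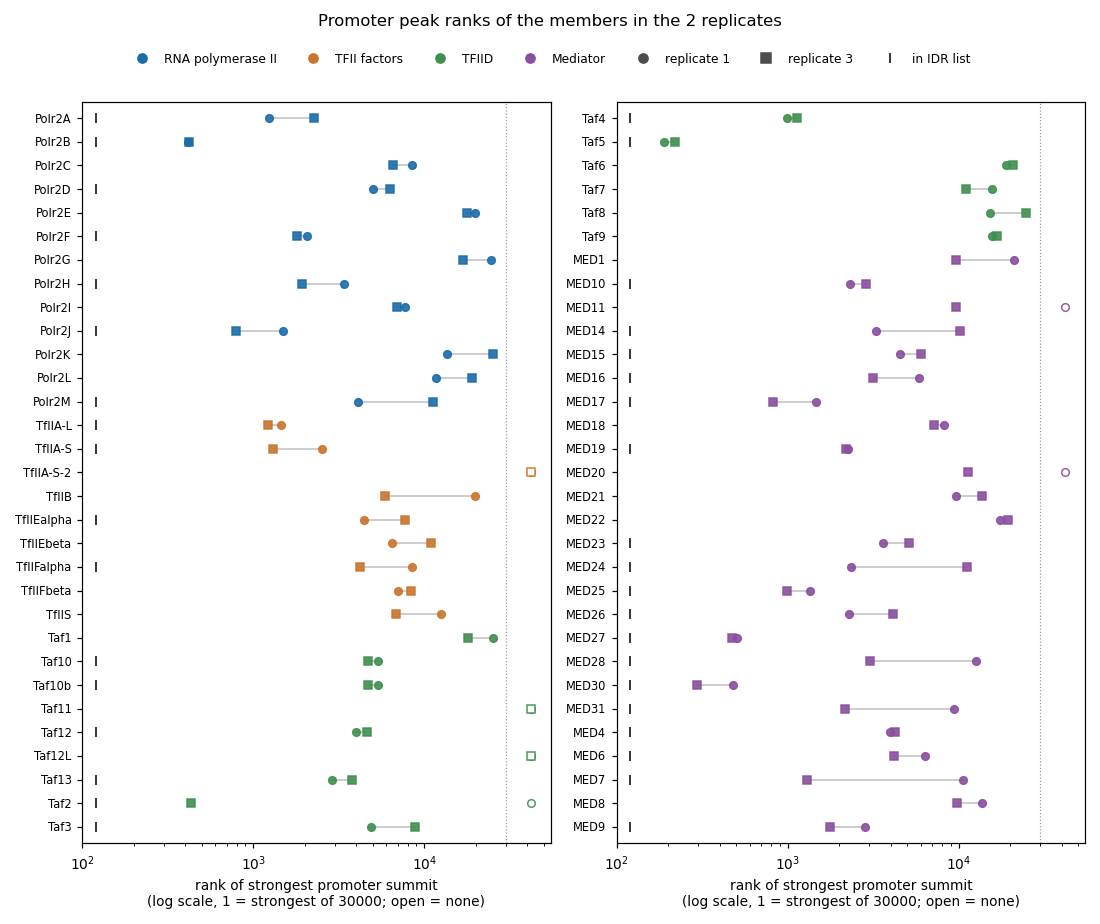
Rank of the strongest promoter summit in replicate 1 (circles) and replicate 3 (squares) for each of the 62 genes (x axis, log scale, 1 is the strongest of 30000), coloured by complex, with a tick at the left for the 37 genes of the IDR list. Open symbols beyond the dotted line mark a replicate with no promoter summit, and an open square alone marks a gene with none in either, as at Taf11, Taf12L and TfIIA-S-2. Taf5, Polr2B, MED30 and MED27 are the 4 strongest in replicate 1, and in replicate 3 Taf2 at rank 431 stands before MED27 at 474.

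Mediator genes were bound in the IDR list unevenly over the modules, which were assigned from mammalian structures. All 8 tail genes and the backbone gene MED14 were bound, as were 7 of 9 middle genes (77.8%) and 2 of 7 head genes (28.6%), where 30.4% of all genes were bound. The head share was thus near that of all genes. The head genes all had a pooled summit, with a median pooled rank of 16756 against 4087.5 for the tail and 3046 for the middle genes. With each summit given only to its nearest TSS, 12 MED genes stayed bound. Those lost were MED27 and MED30 of the tail, MED9, MED10 and MED31 of the middle and MED17 of the head. The head, middle and tail groups hold 7 to 9 genes and their difference was not tested.

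The strongest Mediator peaks, at MED30 and MED27, lay at tail genes, and the next was at the head gene MED17. The tail genes were not stronger as a group. Their median IDR rank was 4087.5, against 2678 for the bound middle genes and 2855.5 for the bound head genes. MED30 (FBgn0035149, chr3L:652987-654089, minus), a metazoan subunit, had a signal of 226 and rank 479 in replicate 1, 384 and rank 297 in replicate 3, and 609 and rank 349 in the IDR list at 174 bp upstream. MED27 (FBgn0037359, chr3R:5655139-5656336, plus), at the junction of tail and head in mammals, had a signal of 219 and rank 508 in replicate 1, 314 and rank 474 in replicate 3, and 534 and rank 479 in the IDR list at 159 bp upstream. MED25 (FBgn0038760, chr3R:20008947-20011712, plus), whose human counterpart binds viral and cellular activators, ranked 1355 in replicate 1 and 992 in replicate 3 with an IDR signal of 319. The other tail genes MED15, MED16, MED23, MED24 and MED28 had IDR ranks from 4072 (MED23) to 5481 (MED24).

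In the head, MED17 (FBgn0038578, chr3R:18189072-18191265, plus), its central scaffold, ranked 1462 in replicate 1 and 825 in replicate 3, with an IDR signal of 365 at 183 bp upstream. MED6, which touches the middle module, was the other bound head gene, with IDR rank 4748, and the only gene of the set with more than 1 IDR promoter summit. The head genes MED8, MED11, MED18, MED20 and MED22 had pooled ranks of 16756, 19618, 6826, 19650 and 21807. MED11 and MED20 had no promoter summit in replicate 1, while in replicate 3 they ranked 9690 and 11314. The nearest replicate 1 summit to MED20 was 1083 bp away.

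Of the middle genes, MED9, MED19, MED7, MED10, MED26, MED31 and MED4 were in the IDR list, with ranks from 2102 (MED9) to 3579 (MED4). MED26 is known in human cells for its contacts with elongation factors. MED1, known in mammals for binding nuclear receptors, had rank 20994 in replicate 1 and 9649 in replicate 3, and MED21 had 9630 and 13707, and neither was in the IDR list. The median IDR rank over the 18 bound MED genes was 3257.5, against 1795 for the 7 bound Polr2 genes, 3358 for the 4 TfII genes and 3179 for the 8 Taf genes.

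Peak strength in the set was near that of bound genes as a whole. The 37 genes had a median IDR rank of 2701 and a median signal of 203, and all 4245 bound genes had 3006 and 191. Of the 37, 20 (54.1%) were among the 3361 strongest peaks of the IDR list, against 56.0% of all bound genes. A rank up to 500 was reached by 5 genes (13.5%), namely Taf5, MED30, Polr2B, Taf2 and MED27, against 8.22% of all bound genes. The signals ran from 119 (Taf3) to 807 (Taf5), and over all bound genes from 117 to 3680. The 22 genes with a pooled but no IDR promoter summit had pooled ranks from 6826 (MED18) to 23062 (Polr2K), with a median of 14638.5 against 12138 over the 3475 such genes in all.

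Ranks of the same gene differed between the replicates by a median factor of 1.42 over the 56 genes bound in both, and by 1.47 over all 6888 such genes. They were within a factor of 2 for 47 of the 56 (83.9%) against 76.6% of all genes. Spearman's rho between the ranks was 0.77 for the set and 0.77 for all genes, which describes genes that share 2 libraries. Neither replicate was stronger throughout, as 30 of the 56 genes ranked higher in replicate 3.

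The largest disagreement was at MED7, with a signal of 38.7 and rank 10643 in replicate 1 and 182 and rank 1298 in replicate 3, a factor of 8.2. MED24 went the other way, with 101 and rank 2337 in replicate 1 and 44.3 and rank 11269 in replicate 3, a factor of 4.82. MED31 and MED28 were stronger in replicate 3 by factors of 4.31 and 4.21, TfIIB by 3.39, and MED14 and Polr2M were stronger in replicate 1 by 3.09 and 2.76. Each of these 7 genes was among the 6723 strongest peaks in 1 replicate and below them in the other.

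Of the 36 genes of the IDR list with a promoter summit in both replicates, 27 were among the 6723 strongest peaks in each. The other 9 were among them in 1 replicate. No share over all bound genes stands beside these counts, so they describe the set only.

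The IDR summits lay mostly upstream of the start. Their median position was 78 bp upstream (-78, quartiles -136 and -19) in the 37 genes, and -60 (quartiles -128 and 12) in all bound genes. The order turned with the replicate, as the 6723 strongest peaks of replicate 1 alone gave a median of -39 for the set and -49 for all bound genes, and those of replicate 3 gave -80.5 and -63. Of the 37, 30 (81.1%) were upstream, against 69.5% of all bound genes, and 14 (37.8%) were over 100 bp upstream, against 35.9%. By annotation 27 of the summits lay outside the gene, 6 in its 5′ UTR and 4 in an intron. The medians by complex were -87 for Polr2, -78 for TfII, -93 for Taf and -62 for MED genes, and their ranges overlapped. No gene of the set had an IDR summit inside its body beyond 250 bp of a start.

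**Figure D3:**
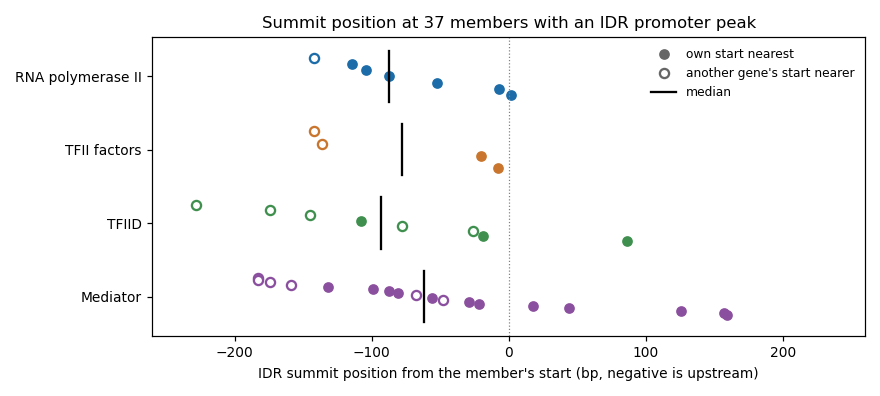
Position of the strongest IDR promoter summit from the nearest start of the gene (x axis, bp, negative is upstream) for the 37 bound genes by complex, 1 point per gene with the median as a line. Filled points have the gene's own start as the nearest, and open points, 14 of 37, lie nearer to the start of another gene. The summits of each complex spread from over 100 bp upstream to near the start, and only MED14, MED15 and MED19 are over 100 bp downstream.

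Few genes lay near the edge of the 250 bp window, but its width mattered. The count of bound genes was 20 with 100 bp (all genes 18.7%) and 39 with 500 bp (all genes 34.0%), against 37 with 250 bp (all genes 30.4%). Just inside it were Taf2 at 228 bp upstream and MED17 and MED31 at 183 bp upstream. Just outside were Taf11 at 286 bp and TfIIB at 339 bp upstream of the start. The next was MED20, far from the edge, whose nearest IDR summit was 1122 bp downstream.

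Many of the genes stood head to head with a neighbour, so a promoter peak often had more than 1 possible owner. A gene was called head-to-head where a gene on the other strand started at most 500 bp upstream of its own start. This held for 38 of the 62 genes (61.3%) and for 27.4% of all genes. Of the 38, 27 (71.1%) were bound in the IDR list, where 55.4% of all head-to-head genes were bound. Of the other 24 genes, 10 (41.7%) were bound, against 21.1% of all other genes. The share over the whole set therefore includes its larger share of head-to-head genes, and both kinds of gene stood above their own background.

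The summit of 24 of the 37 bound genes (64.9%) also lay in the window of another protein-coding gene, against 42.4% of all bound genes. In 14 genes (37.8%) it was nearer to the start of the other gene, against 20.2% of all bound genes. These 14 include Taf5, Taf2, MED30, MED27, MED17 and TfIIA-L, so 4 of the 5 genes with a rank up to 500 had a neighbour's start closer to the summit. The Taf5 summit was 174 bp from Taf5 and 127 bp from Pex6, a peroxisome assembly gene. The MED30 summit was 174 bp from MED30 and 100 bp from Rev1, a DNA polymerase of damage bypass. The MED27 summit was 159 bp from MED27 and 119 bp from elm. At Taf2 the summit was 228 bp upstream and lay 149 bp downstream of the start of CalpB, a calpain protease. Which gene of a pair a peak acts on was not tested.

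Polr2B kept its own start as the nearest, at 87 bp against 156 bp for 140up, as did Polr2A against CG11699 (104 and 191 bp) and Polr2J against CG15141 (114 and 121 bp). No other protein-coding gene's start was in the window for 13 bound genes, among them Polr2F, TfIIA-S, Taf4, MED14, MED25 and MED4. For these the peak had a single protein-coding gene within 250 bp, and non-coding genes and genes farther away were not counted.

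In 23 bound genes the summit was shared with the head-to-head partner, with 43 to 365 bp between the starts (median 126). In 14 of the 23 (60.9%) it lay between the starts, against 70.8% of 1668 such genes in all. Where the starts were more than 126 bp apart this held for 10 of 11 genes (all genes 92.9%), and where they were closer for 4 of 12 (all genes 35.0%). The set followed the same split by gap as all genes, a split chosen after the values were seen. A summit within 250 bp of both starts must lie between them where they are over 250 bp apart. The window thus fixed part of this split in advance, in the set and in all genes.

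**Figure D4:**
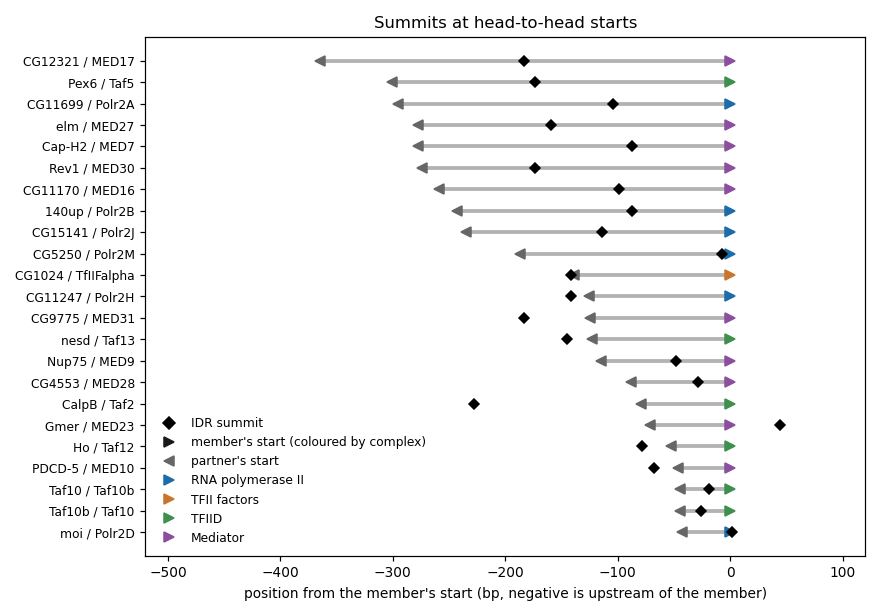
Position of the IDR summit (black diamond) relative to the start of each of 23 genes (coloured triangle at 0) and of its head-to-head partner (grey triangle), in bp (x axis, negative is upstream of the gene). Rows are ordered by the distance between the starts, from 365 bp at MED17 to 43 bp at Polr2D. In the wide pairs the diamonds lie between the triangles, as at MED17, Taf5 and Polr2A. Where the starts are over 250 bp apart, as at these genes, no other position is within 250 bp of both. In narrow pairs the diamonds are often outside, as at Taf2 and MED31.

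A pair of shared promoters joined genes of the machinery to each other. Taf10 and Taf10b, which encode related TFIID subunits, start 45 bp apart with the shared IDR summit 26 and 19 bp upstream of their starts. MED20 and Trf, which encodes a relative of TBP, start 47 bp apart, and both had only a weak summit at pooled rank 19650 that was found in replicate 3 and not in replicate 1. Head-to-head genes of the set without an IDR summit were 11 in all, and besides MED20 they included Polr2C, Taf6, Taf11, MED18 and TfIIB.

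The A+T share rose at the summits. Over 50 bases on either side of the 36 different IDR summits of the set the median was 65.3%, and it was 52.7% at 300 bp from the summit. Over all 3341 promoter summits the medians were 60.4% and 57.4%. The A+T share was higher at the summit than at 300 bp for 28 of the 36 summits, and for 57.7% of all promoter summits. A run of 10 or more A or T was found at 20 of the 36 (55.6%), against 42.1% of all promoter summits. Summits ranged from 35.6% at MED19 to 87.1% at Taf2, with 85.1% at Polr2J, 81.2% at Taf5, 80.2% at Polr2A and 79.2% at Polr2B and TfIIA-L. Among the 5 genes of rank up to 500, MED27 had 69.3% and MED30 74.3%, all above the median of the set.

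The promoter as a whole did not separate bound from unbound genes of the set by base composition. From 250 bases before to 50 bases after the outermost start, the median A+T share was 64.0% in the 37 bound and 64.7% in the 25 other genes, and 62% over all genes. The same values over 50 bases on either side of the start were 58.4%, 59.4% and 56.4%.

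**Figure D5:**
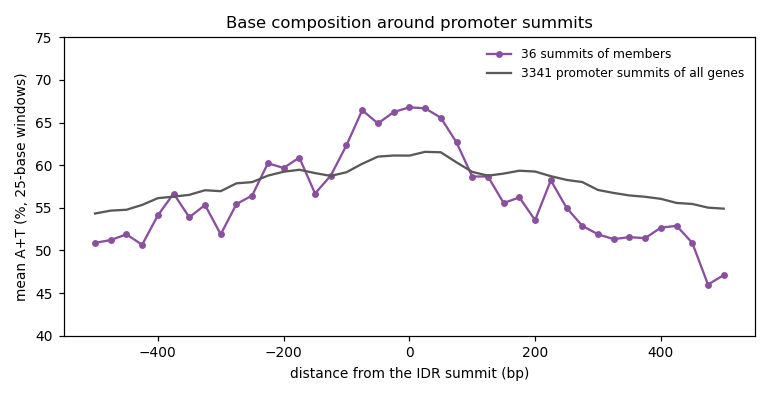
Mean A+T share (y axis, percent, in 25-base windows) by distance from the IDR summit (x axis, bp) for the 36 summits of the set and for all 3341 promoter summits. The curve of the set is at 66.8% at the summit and 50.9% at 500 bp on the left, and that of all promoter summits at 61.1% and 54.3%.

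Core promoter motifs known from housekeeping genes of the fly were searched in the same promoter windows on both strands. Motif 1 (core GGTCACAC) was in 16 of 62 promoters of the set (25.8%) and in 7.70% of all promoters. It was in 8 of the 37 bound (21.6%) and 8 of the 25 other genes (32.0%), so it did not follow the peaks within the set, and 14% of all bound genes had it. It often began close to the start, as at position 4 of Taf5, 7 of MED15, 9 of MED19 and 8 of MED20, counted from 1 at the start. The DNA replication element (DRE, TATCGATA) was in 10 promoters (16.1%, all genes 9.36%), with 7 in bound genes (18.9%, all bound genes 17.8%), among them MED17, MED25, MED28 and Polr2D. Motif 7 (core CATCNCTA) was in 9 promoters (14.5%, all genes 6.42%), 6 of them of bound genes, among them MED27, MED7 and Taf10b.

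Other elements were searched as well, and of these the initiator, GAGAGAG and CAGCTG were less frequent in the set than over all genes. The initiator letters TCAGT, on the sense strand within 10 bases of the start, were found in 1 promoter of the set (1.61%), against 13.3% of all genes, and this was TfIIA-S-2, which had no peak. GAGAGAG, the letters bound by GAGA factor, was in 1 promoter (MED21), against 5.87% of all genes. The letters CAGCTG of an E-box were in 7 promoters (11.3%, all genes 17.7%). TATAAA, searched anywhere in the window, was in 31 of 62 promoters (50%) against 45.8% of all genes and was the most frequent of the motifs searched.

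Around the summits the windows were shorter, at 201 bases against 300 for the promoters, so shares in them are compared only with those of all promoter summits. The DRE was at 5 of the 36 summits (13.9%, all promoter summits 11%), Motif 1 at 3 (8.33%, all 7.63%), Motif 7 at 3 (8.33%, all 7.57%), CAGCTG at 2 (5.56%, all 16.3%) and TATAAA at 14 (38.9%, all 29.3%). A match is a match of letters and not a binding site.

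The bound genes were spread over the arms. On 3R 15 of 21 genes of the set were bound, on 3L 10 of 15, on 2L 5 of 11, on 2R 4 of 7, on X 1 of 6 and on chromosome 4 both genes. Over all genes the share bound ran from 27.6% on 2L to 32.5% on chromosome 4. Polr2A was the bound gene on X, and Taf8, Taf9, MED18, MED22 and TfIIA-S-2 were the others there.

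The genes that work with these complexes under other names gave a similar picture in part. In the kinase module of Mediator 3 of 4 genes were bound in the IDR list, namely kto, skd and Cdk8, all with signals under 142, while CycC had pooled rank 10061. Of the TBP family Trf2 had a signal of 693 and rank 277, Tbp itself 142 and rank 5023, and Trf was not in the IDR list. Of TFIIH, which opens the promoter and phosphorylates the polymerase, 8 of 10 genes were bound, with Ssl1 at a signal of 1929 and rank 17, above every gene of the set. Of elongation and pausing factors 7 of 10 were bound, led by Nelf-E at rank 397. Among subunits of the other polymerases, 8 of 10 RNA polymerase III genes and 2 of 7 RNA polymerase I genes were bound. Testis TAF homologues besides Taf12L were can, nht, mia and sa. None of these 4 was in the IDR list, and only mia had a summit in the pooled list, at rank 26017. Over these 48 genes 30 (62.5%) were bound in the IDR list, with 30.4% of all genes, and 45 (93.8%) in the pooled list, with 55.4% of all genes. The RNA polymerase I count was near the share over all genes.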

How the data were processed

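Ovaries of females expressing CG17801-GFP were profiled by ChIP-seq with a GFP antibody in 2 replicates, numbered 1 and 3 per the labels. The authors deposited peak lists on dm6. Per the file headers, here the text descriptions deposited with each sample, alignments and a control file were used for the lists of single replicates and of the pool, and those 3 lists for the IDR list. The aligner and the caller of the peaks were not given in these sources. For each peak the signal is the authors' value on an unstated scale. The −log10 q-value deposited with each peak was not used to rank peaks. The summit offset deposited with each peak gave its position. Other columns of these lists were not used. No read totals come with the lists, so depth gives no precision here.

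The software was Python 3.11.15 with pandas 2.3.3, numpy 2.4.6, scipy 1.17.1 and, for plots, matplotlib 3.10.9, together with the Ensembl BDGP6 annotation and the NCBI Release 6 genome. That genome matched the peak lists in that no peak ran past an arm end, and 99.5% of 13945 coding starts read ATG in it. The procedure was tested on simulated data. For each gene the strongest summit within 250 bp of a TSS was taken, and a distance is to the nearest TSS of the gene. Windows with more than 30 exonic bases were not printed, and 1 other sequence is not reported here. Counts are set beside those of all genes without a test, because 1 group was profiled and genes of a set are not replicates. Named in full are the 4 bound genes of highest signal in each complex, and those not bound in the IDR list, with disagreeing replicates or nearest the window edge are named with values. Other members are named after their values were seen where a sentence counts or ranks them. The members, gene lists and motifs were chosen with earlier results of these data known, and the definition of head-to-head genes with the data in view. In the lists of related genes e(y)1 and rye were taken as Taf9 and Taf12L, Tfb2 as mrn and Spt4 as spt4. Alternatives varied the window, the owner of a summit, the part of the list, the replicate and the gap between head-to-head starts.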

Additional observations from a re-analysis of the deposited data

How the results depend on the processing

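The 37 genes bound in the IDR list became 20 (32.3%, all genes 18.7%) with a window of 100 bp, 23 (37.1%, all genes 24.6%) with each summit given only to its nearest TSS, and 20 (32.3%, all genes 17.1%) among its 3361 strongest peaks. A window of 500 bp gave 39 (62.9%, all genes 34.0%) and any base of the peak 38 (61.3%, all genes 33.0%). Summits matched within 100 bp in both replicates gave 34 (54.8%, all genes 28.8%). The strongest pooled peaks gave the same 37 genes, and the same 4245 of all genes. Each of the 37 had the same signal and rank in the pooled and IDR lists, so this setting was not a separate check. With 1 replicate alone the count was 33 to 34 (all genes 29.4% to 29.8%). Without replicate 1, MED14, MED24, Polr2M, Taf3 and TfIIEalpha were lost and Polr2C and TfIIB gained, and without replicate 3, MED28, MED31, MED7, Taf2 and TfIIFalpha were lost and TfIIEbeta gained. The 36 genes in all 4 lists became 18 at 100 bp and 21 with the nearest TSS, and the 3 in neither replicate became 16 and 10. Shares over all genes are not given for these counts at the changed settings. By complex, 100 bp gave 4 of 13 Polr2, 2 of 9 TfII, 4 of 15 Taf and 10 of 25 MED genes (all genes 18.7%). The nearest TSS gave 6 Polr2, 2 TfII, 3 Taf and 12 MED genes (all genes 24.6%). The TfII and Taf shares were then below that of all genes. The median summit position was -80.5 without replicate 1 and -39 without replicate 3, and -81 with a window of 500 bp. Head-to-head genes numbered 23 (37.1%, all genes 14.2%) with a gap of up to 250 bp, an alternative chosen after seeing the data. No paired analysis was possible because the 2 replicates form 1 group. Peak lists carry no depth, and a missing summit is not an absence of binding.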
